A study of Saccharomyces cerevisiae with 6 samples.

Results

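The genes described here encode the 9 cyclins that drive the division cycle of the budding yeast Saccharomyces cerevisiae, CLN1, CLN2, CLN3 and CLB1 to CLB6, together with SIC1, the inhibitor of the S-phase cyclin kinase. They were chosen by name: each is the gene whose open reading frame identifier the array design gives for a probe. All 10 were found among the 6225 gene identifiers on the array, each with 1 probe in 7 copies, and all 10 were among the 5944 genes tested. Every one of their 420 spots over the 6 arrays was well above background, and 0 were marked as outliers by the scanner software.

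Cyclins are unstable proteins that activate the cyclin-dependent kinase Cdc28 and steer it to its targets, and in yeast much of their rise and fall is set at the level of transcription. Cln3 acts early in G1 and relieves the repressor Whi5, so that the factors SBF (Swi4 with Swi6) and MBF (Mbp1 with Swi6) switch on CLN1, CLN2, CLB5 and CLB6. Clb5 and Clb6 start DNA replication, Clb3 and Clb4 act in S phase and on the early spindle, and Clb1 and Clb2 drive mitosis. Sic1 holds Clb kinases inactive in G1 until it is phosphorylated and destroyed, and SIC1 is transcribed at the end of mitosis.

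RNA came from strain BY4743 grown in synthetic medium with 2% glucose at 30 °C, either for 4 h with 10 mM glycolaldehyde, a small reactive hydroxyaldehyde, or alike without it. There were 3 arrays per group, and the labels report 3 separate starter cultures. The labels mention no step to synchronise or sort the cells, so each value is an average over the cells of a culture. Their stages in the cycle were not measured. Labelling began from equal amounts of total RNA and each array was scaled to its own signal, so changes are relative to other transcripts. A lower signal from such a bulk sample can mean fewer cells in the stage that expresses the gene or less of its RNA, relative to other RNA, in those cells. These cannot be told apart here. The labels call the culture static in one place and anaerobic in another, and their wording leaves unclear whether the overnight cultures also contained glycolaldehyde. They also enter the ploidy as haploid, whereas BY4743 is known as an a/α diploid. Probes for HIS3, LEU2 and URA3, which are deleted in BY strains, were well above background on 0 of 6 arrays. All 14 checked genes that a/α diploids keep off, among them STE2, STE3 and HO, were above background on all 6 arrays, which is a low bar since at least 94.8% of all probes were on each array.

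The records of the series disagree on which array is which sample. Every column of the deposited value table equals the mean spot signal of exactly 1 scanner file (relative tolerance 1e-06), but for 3 of the 6 samples that file is attached to another sample, and 2 arrays thereby change group. Values below follow the columns of the value table, which are headed by sample, and groups follow the sample titles and treatment entries; the free-text descriptions state the opposite treatment for each sample. Were the descriptions right, every direction given here would turn, and CLB6, for example, would be 1.94-fold higher with glycolaldehyde. This choice was made with the outcome of both records known. With the scanner files grouped as attached, limma called 0% of 5924 genes, 134 had an unadjusted p under 0.05, and 0 of the 10 genes passed. Which record is right was not settled by the files. Changes over the 4 arrays whose group is the same in both records are therefore given for each of the 10 genes. These are untreated replicates 1 and 2 and glycolaldehyde replicates 2 and 3, of which only the last was scanned on day 2, so treatment is not balanced over scan day in them. In the value table replicates 1 and 2 of both groups were scanned on one day and replicate 3 of both groups on another, on its own slide. SDs of log2 differences were 0.0979 and 0.105 between replicates 1 and 2 (untreated and glycolaldehyde) and 0.181 to 0.21 between either and replicate 3.

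With glycolaldehyde, 7 of the 10 genes fell and 0 rose. The transcripts of all 3 G1 cyclins were lower, CLB6 of the S-phase pair fell to 51.5% of its untreated signal, and CLB1, CLB3 and SIC1 fell by smaller amounts. CLB2, CLB4 and CLB5 did not pass the test. Calls are at an adjusted p under 0.05 in limma with Benjamini-Hochberg adjustment over all 5944 genes, 53.1% of which were called, 23.5% as lower and 29.6% as higher. These shares are from the fit without a block. With scan day as a block more genes were called, 1788 lower and 2294 higher of 5944, while 7 of the 10 still fell. The median log2 change of the 10 genes was -0.28, beside 0.03 over all genes tested. For the same 7 genes every glycolaldehyde array lay below every untreated array, which held for 27.1% of the genes tested. In the 4 agreed arrays, where 22.1% of genes fell, 5 of the 10 fell (CLN1, CLN2, CLN3, CLB1 and CLB6).

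**Figure D1:**
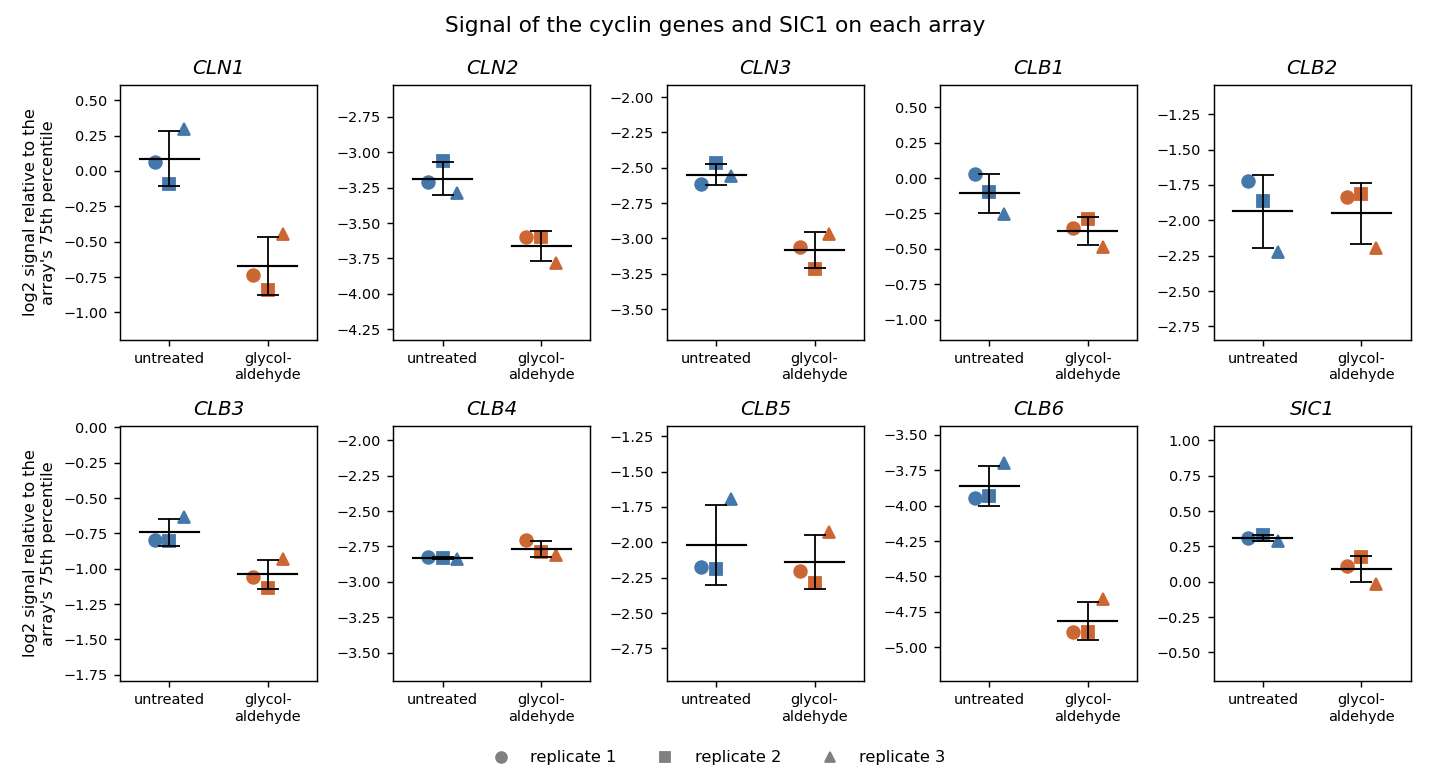
Signal of the 9 cyclin genes and SIC1 on each of the 6 arrays, as log2 of the deposited signal relative to the array's 75th percentile; marker shapes give the replicate, long bars the mean and short bars the SD (n = 3 per group), and every panel spans the same range on the log2 scale. The groups are separate for CLN1, CLN2, CLN3, CLB1, CLB3, CLB6 and SIC1, overlap for CLB2 and CLB5, and lie close together for CLB4.

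CLN3 is the most upstream of the G1 cyclins. All signals here are log2 values relative to the 75th percentile of the array, so a negative value means a probe dimmer than that percentile, and probes of different genes cannot be ranked against each other. CLN3 read -2.62, -2.47 and -2.56 on untreated arrays 1 to 3 and -3.06, -3.22 and -2.97 on glycolaldehyde arrays 1 to 3. The 3 treated arrays were all lower than the lowest untreated array. The log2 change was -0.53 ± 0.08 (SE, n = 3 per group; adjusted p = 0.00103 in limma), which leaves 69.2% of the untreated signal. It was -0.59 within scan day 1 and -0.40 within scan day 2, and -0.55 in the 4 agreed arrays (adjusted p = 0.0078).

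CLN1 and CLN2 encode a pair of closely related late G1 cyclins that trigger budding and commitment to the cycle. CLN1 read 0.06, -0.09 and 0.29 without and -0.73, -0.84 and -0.44 with glycolaldehyde. The groups were clearly apart, and replicate 3 was the highest array in each. CLN1 fell by 0.76 ± 0.13 on the log2 scale (adjusted p = 0.0019 in limma), or 1.69-fold, with -0.77 and -0.74 within the scan days and -0.63 in the 4 agreed arrays. CLN2 read -3.21, -3.06 and -3.29 without and -3.60, -3.60 and -3.79 with glycolaldehyde. In contrast to CLN1, replicate 3 was here the lowest array of each group. CLN2 fell by 0.48 ± 0.08 (adjusted p = 0.00202), or 1.39-fold, with -0.47 and -0.50 within the scan days and -0.56 in the 4 agreed arrays.

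The difference between CLN1 and CLN2 in response did not pass the test across arrays. The log2 distance of CLN1 from CLN2 was 3.27 ± 0.31 in untreated and 2.99 ± 0.31 in treated arrays (SD, n = 3 each), and the groups overlapped. The distance changed by -0.28 (exact permutation p = 0.3, two-sided; 0.375 after adjustment over 5 gene pairs compared). With 3 arrays against 3 this test, which does not pair same-numbered arrays, cannot go below 0.1. Between same-numbered arrays the distance was lower with glycolaldehyde in 3 of 3, with changes of -0.40, -0.21 and -0.24. Whether these arrays are true pairs was not shown. The change ranged from -0.46 without glycolaldehyde replicate 3 to -0.13 without untreated replicate 3, and was -0.07 in the 4 agreed arrays.

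CLB5 and CLB6 encode the S-phase cyclins, and of all 10 genes CLB6 had the largest change. CLB6 read -3.95, -3.93 and -3.70 on untreated arrays and -4.90, -4.89 and -4.66 on treated arrays. The gap between the groups was wider than the spread of the arrays within either group, and replicate 3 was the highest array in both. CLB6 fell by 0.96 ± 0.09 (95% confidence interval -1.17 to -0.74; adjusted p = 0.000161 in limma), which leaves 51.5% of the untreated signal. The change was -0.95 within scan day 1, -0.96 within scan day 2 and -0.84 in the 4 agreed arrays. Its deposited linear signal ran from 594 to 980 without and from 294 to 543 with glycolaldehyde. With normexp correction of the raw spot medians the change was -0.80.

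CLB5 read -2.17, -2.19 and -1.69 without and -2.20, -2.29 and -1.92 with glycolaldehyde. Replicate 3 stood above the other 2 arrays in both groups, and the groups overlapped. The log2 change of -0.12 ± 0.15 did not pass (adjusted p = 0.531 in limma, 95% confidence interval -0.47 to 0.23). Falls of the size seen for CLN1, CLN3 and CLB6 lie outside the interval. One of the size seen for CLN2 (-0.48) lies at its edge, and those of the size seen for CLB1, CLB3 and SIC1 lie inside it. The fit behind this interval has no block, so the shift of replicate 3 shared by both groups counts as spread. With scan day or replicate as a block the change was the same and did not pass either (adjusted p = 0.0612 and 0.0877 in limma). The change was -0.07 within scan day 1, -0.23 within scan day 2 and 0.07 in the 4 agreed arrays.

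The signals of CLB5 and CLB6 lay farther apart with glycolaldehyde, with log2 changes of -0.12 for CLB5 and -0.96 for CLB6. Their log2 distance was 1.77, 1.75 and 2.01 on untreated arrays and 2.69, 2.60 and 2.74 on treated arrays. Every treated array lay above every untreated one, by 0.83 on average. This difference was 0.91 in the 4 agreed arrays. The exact two-sided permutation test gave p = 0.1 (0.167 adjusted over the 5 pairs). That is the smallest value it allows with 3 against 3, so no pair could reach 0.05 by this test. The SDs of the distance were 0.14 within untreated and 0.07 within treated arrays.

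CLB3 and CLB4 encode the B-type cyclins of the early spindle. CLB3 read -0.80, -0.80 and -0.63 without and -1.05, -1.14 and -0.93 with glycolaldehyde. All treated arrays were lower, and replicate 3 was the highest in both groups. CLB3 fell by 0.30 ± 0.08 (adjusted p = 0.0125 in limma), with -0.30 within each scan day. In the 4 agreed arrays it was -0.23 and did not pass (adjusted p = 0.0655), and without glycolaldehyde replicate 2 it did not pass either (0.0516).

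CLB4 had the smallest spread between arrays of the 10 genes in both groups. It read -2.82, -2.83 and -2.84 on untreated arrays and -2.71, -2.79 and -2.81 on treated arrays. The treated arrays all lay above the untreated ones, but the log2 change of 0.06 ± 0.05 did not pass (adjusted p = 0.343; 95% confidence interval -0.06 to 0.19). It was 0.03 in the 4 agreed arrays. The CLB3 to CLB4 distance narrowed by 0.36, from 2.09 ± 0.10 to 1.73 ± 0.13 (SD, n = 3 each), with no overlap (exact permutation p = 0.1, adjusted 0.167), and by 0.26 in the 4 agreed arrays.

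CLB1 and CLB2 encode the mitotic cyclins, of which Clb2 is the major one. CLB1 read 0.03, -0.10 and -0.25 without and -0.35, -0.29 and -0.48 with glycolaldehyde. The groups did not overlap, but the lowest untreated array, replicate 3, lay only a little above the highest treated one. CLB1 fell by 0.27 ± 0.09 (adjusted p = 0.0328 in limma). That call depends on single arrays: it was lost without untreated replicate 1 or 2 or without glycolaldehyde replicate 1 or 3, with adjusted p up to 0.111, while in the 4 agreed arrays the change was -0.35 (adjusted p = 0.0233).

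CLB2 read -1.72, -1.86 and -2.22 without and -1.84, -1.81 and -2.20 with glycolaldehyde. The groups overlapped throughout, and replicate 3 was the lowest array in both. The log2 change was -0.01 ± 0.15 (adjusted p = 0.945, 95% confidence interval -0.36 to 0.33), and its sign turned with the arrays used. The shared shift of replicate 3 counts as spread here too. With scan day as a block the change did not pass either (adjusted p = 0.808 in limma). In the 4 agreed arrays it was -0.21 (adjusted p = 0.229), where the 1 array of scan day 2 is a treated one. The CLB1 to CLB2 distance was 1.83 ± 0.12 in untreated and 1.58 ± 0.12 in treated arrays (SD, n = 3 each), without overlap (exact permutation p = 0.1, adjusted 0.167). The change of -0.25 in this distance was -0.14 in the 4 agreed arrays.

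SIC1 is the counterpart of these cyclins. It read 0.31, 0.33 and 0.29 on untreated arrays and 0.11, 0.17 and -0.01 on treated arrays. The untreated arrays agreed closely, and every treated array was lower. SIC1 fell by 0.22 ± 0.06 (adjusted p = 0.02 in limma), which leaves 85.9% of the untreated signal, with -0.18 and -0.30 within the scan days. It was -0.24 in the 4 agreed arrays and did not pass there (adjusted p = 0.0523), nor without untreated replicate 1 or 2 or glycolaldehyde replicate 1 (up to 0.0668). The distance between SIC1 and CLB5, the cyclin whose kinase Sic1 restrains, was 2.33 ± 0.30 in untreated and 2.23 ± 0.29 in treated arrays (exact permutation p = 0.5), with overlapping groups. The change of -0.10 in this distance was -0.32 in the 4 agreed arrays.

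**Figure D2:**
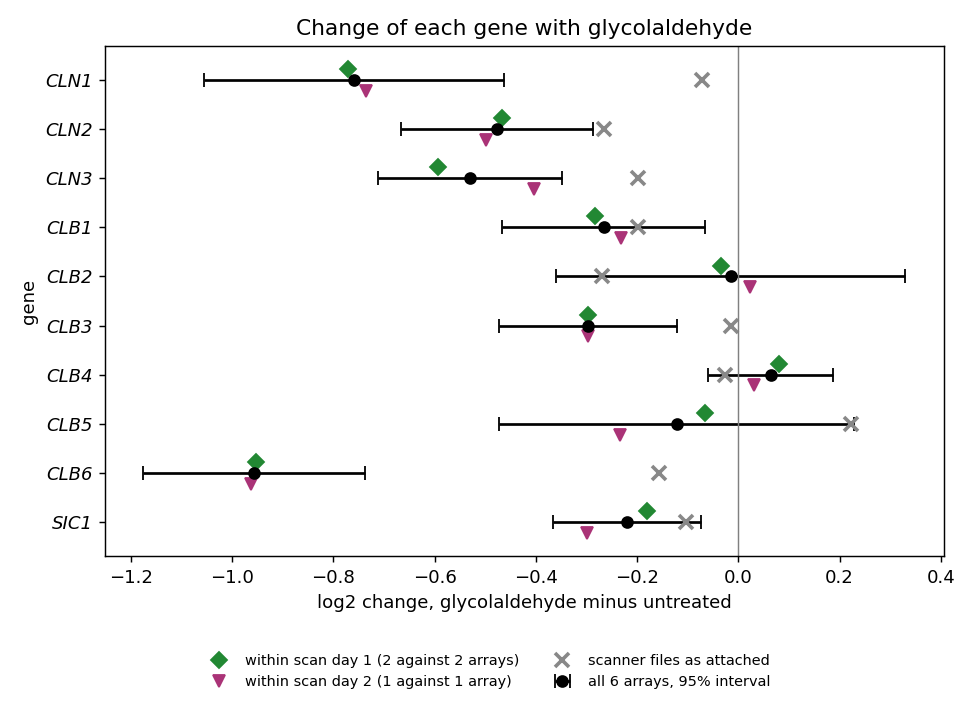
Log2 change of each gene, glycolaldehyde minus untreated, over all 6 arrays (black points with 95% confidence intervals), within each scan day (diamonds, 2 against 2 arrays, and triangles, 1 against 1) and with the scanner files grouped as attached (grey crosses). CLB6 and CLN1 lie farthest from 0, at -0.96 and -0.76, the scan days give nearly the same values for most genes, and the crosses lie nearer to 0 for all genes but CLB2 and CLB5.

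The falls were seen on both scan days for all 7 genes that passed, and 9 of the 10 genes had the same sign on both days, CLB2 being the exception. In the grouping as attached the changes were smaller for these 7, from -0.26 for CLN2 to -0.01 for CLB3, and the smallest adjusted p was 0.92. In that grouping CLN1 was at -0.07 ± 0.33 and CLB6 at -0.16 ± 0.39, against standard errors of 0.13 and 0.09 in the value-table grouping.

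Replicate 3 differed from the others in the same direction in both groups for 9 of the 10 genes. The exception was CLN3, with shifts of -0.02 in untreated and 0.17 in treated cells. It stood above the mean of replicates 1 and 2 for CLB5, by 0.49 in untreated and 0.32 in treated cells. For CLN1 the shifts were 0.31 and 0.34, for CLB6 they were 0.24 and 0.23, and for CLB3 they were 0.17 and 0.16. CLB2 shifted the other way, by -0.43 and -0.37, and so did CLB1 (-0.22 and -0.16) and CLN2 (-0.15 and -0.18), and, less so, SIC1 (-0.04 and -0.16) and CLB4 (-0.02 and -0.06). Over all tested genes the middle 95% of such shifts ran from -0.39 to 0.39 in untreated and from -0.38 to 0.30 in treated cells. CLB5 was outside these limits in both groups, upwards, CLB2 in the untreated group, downwards, and CLN1 in the treated group, upwards. Replicate 3 differs from the others in slide, scan day and possibly culture, and these cannot be told apart.

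**Figure D3:**
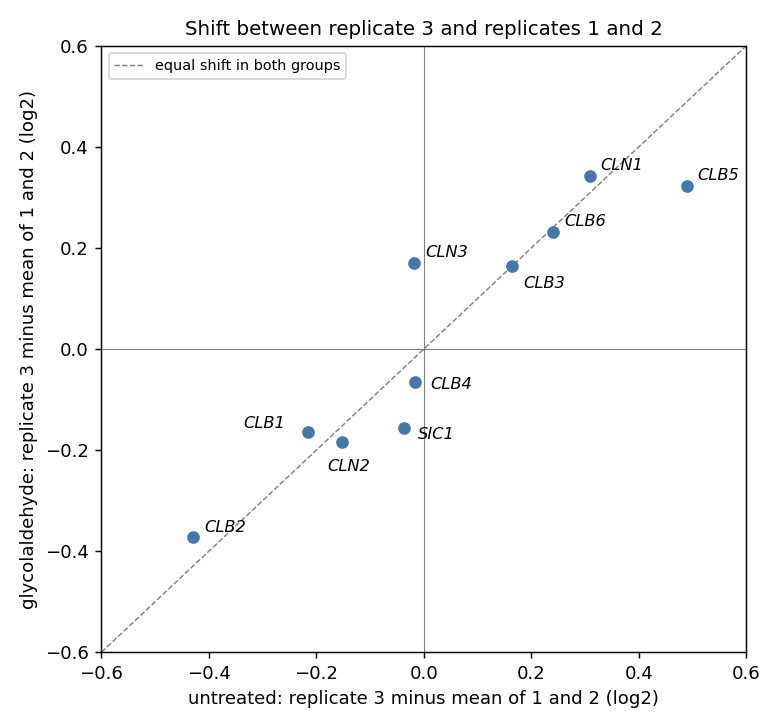
Shift of each gene between replicate 3 and the mean of replicates 1 and 2, in untreated cells (horizontal axis) and glycolaldehyde-treated cells (vertical axis), both on the log2 scale; the dashed line marks equal shifts. CLB5 (0.49 and 0.32) and CLB2 (-0.43 and -0.37) lie at opposite ends, and most genes lie near the line.

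By chromosome order CLB1 is the next gene to CLB6, and CLB2 the next to CLB5. Each neighbouring pair holds an S-phase and a mitotic cyclin gene. The pair of CLB1 and CLB6 fell in both members (-0.27 and -0.96), and the pair of CLB2 and CLB5 passed in neither (-0.01 and -0.12).

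The genes around the cyclins were set beside them in 8 lists of cell cycle genes, drawn up with earlier results of these data known. Together they hold 153 tested genes, of which 45 rose and 46 fell, beside 29.6% and 23.5% of all genes. Their median log2 change was 0.01. The transcription factors of G1 and their regulators were mostly lower: 8 of 12 fell and 1 rose (median -0.29, beside 23.5% of all genes falling). NRM1, a co-repressor that turns MBF targets off after G1, fell by 0.99 ± 0.08 (adjusted p = 5.2e-05 in limma). XBP1, a stress-induced repressor that acts on G1 cyclin promoters, fell by 0.88 ± 0.08, and WHI3, an RNA-binding protein that binds CLN3 mRNA, fell by 0.81 ± 0.10. SWI4, the DNA-binding part of SBF, was the gene that rose, by 0.26 ± 0.07 (adjusted p = 0.0163), and it did not pass in the 4 agreed arrays (0.059), with normexp correction or without glycolaldehyde replicate 2. The count of falls was 8 in the 4 agreed arrays and 5 without untreated replicate 1, untreated replicate 2 or glycolaldehyde replicate 2.

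The kinase and its direct regulators moved both ways, 6 of 11 lower and 3 higher, where 23.5% and 29.6% of all genes were, with the same counts in the 4 agreed arrays. CDC28, the kinase that all 9 cyclins bind, rose by 0.33 ± 0.07 (adjusted p = 0.00416 in limma). It read -0.48, -0.40 and -0.41 without and -0.11, -0.19 and 0.00 with glycolaldehyde, with no overlap. CAK1, which phosphorylates and activates Cdc28, rose by 0.62 ± 0.05, and the kinase chaperone CDC37 rose by 0.65 ± 0.11. The falls were led by CDC6, a replication licensing factor that also inhibits Clb kinases (0.37 ± 0.05), by CDC14, the phosphatase of mitotic exit (0.35 ± 0.05), and by MIH1, the phosphatase that activates Cdc28 (0.27 ± 0.06).

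Other genes of the SBF and MBF class did not follow CLN1, CLN2 and CLB6 as a group. Of 37 tested 7 fell, 10 rose and 20 missed the threshold (median log2 change 0.02). These shares were near those over all genes, of which 23.5% fell and 29.6% rose. In the 4 agreed arrays 5 fell and 7 rose. YOX1, a repressor of M/G1 genes, fell by 1.01 ± 0.10 (adjusted p = 0.000207 in limma), ASF1, a histone chaperone, by 0.55 ± 0.12, and PCL2, a cyclin of the kinase Pho85, by 0.54 ± 0.07. Among those that rose were DUN1, a checkpoint kinase (0.76 ± 0.07), and RFA1 and RFA2, subunits of the single-strand DNA binding complex (0.57 ± 0.11 and 0.49 ± 0.06). The count of falls was 11 within scan day 1 alone.

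The next list joined transcription factors of G2/M with genes of the cluster to which CLB2 belongs. Of its 28 genes 10 rose and 5 fell (median 0.08), beside 29.6% and 23.5% of all genes. These counts are for the whole list and not for the CLB2 cluster alone. SPO12, a regulator of mitotic exit, rose by 0.67 ± 0.13 (adjusted p = 0.0042 in limma), BUD4, a bud-site protein, by 0.56 ± 0.05, and the kinase gene KIN3 by 0.52 ± 0.08. Of the transcription factors of this wave, MCM1 fell by 0.79 ± 0.05, FKH2 by 0.50 ± 0.06 and NDD1 by 0.27 ± 0.07. FKH1 did not pass (0.05 ± 0.10). The other falls were HST3, a histone deacetylase (0.38 ± 0.06), and YHP1 (0.31 ± 0.08), so the falls came in part from the factors. The falls numbered 3 without untreated replicate 1 or 2.

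In the M/G1 class, to which SIC1 belongs, 12 of 22 fell and 2 rose (median -0.21, beside 23.5% and 29.6% of all genes). The cell wall protein gene PIR1 fell by 0.77 ± 0.09 (adjusted p = 0.000318 in limma), the helicase subunit gene MCM7 by 0.43 ± 0.06, and NIS1 by 0.43 ± 0.06. MCM5 of the same helicase rose by 0.42 ± 0.06, and DSE1, a daughter-cell protein gene, by 0.25 ± 0.08. In the 4 agreed arrays 11 fell and 1 rose, and 1 rose without untreated replicate 3 or glycolaldehyde replicate 1 or 2.

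Cyclins and Sic1 are removed by ubiquitin ligases, whose genes were tested in 2 lists. The SCF ligase, which marks Cln1, Cln2 and Sic1 for destruction, had 4 of 9 genes higher and 2 lower (median 0.19, beside 29.6% of all genes rising and 23.5% falling). Its modifier RUB1, its RING subunit HRT1 and its cullin CDC53 rose by 0.54 ± 0.09, 0.53 ± 0.05 and 0.49 ± 0.05 (the largest adjusted p was 0.0022, in limma). MET30, an F-box protein of the methionine pathway, fell by 0.37 ± 0.06. CDC4, the F-box protein that recognises Sic1, fell by 0.16 ± 0.06 (adjusted p = 0.0436), and falls in the list numbered 1 when any array other than untreated replicate 3 was left out, with normexp correction, with slide as a block, with the percentile taken over probes above background on all arrays, and with replicates 1 and 2 averaged.

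The anaphase-promoting complex marks mitotic cyclins such as Clb2 for destruction. Of 22 genes of this complex and its regulators, 12 rose and 2 fell (median 0.26), where 29.6% and 23.5% of all genes did. APC4 and APC2 rose by 0.65 ± 0.06 and 0.56 ± 0.07, and the spindle checkpoint gene MAD2 by 0.60 ± 0.07 (the largest adjusted p was 0.000619, in limma). ACM1, an inhibitor of the activator Cdh1, fell by 0.30 ± 0.07, and the subunit gene APC1 by 0.23 ± 0.06. In the 4 agreed arrays 10 rose and 4 fell, and falls numbered 1 without untreated replicate 1, untreated replicate 2 or glycolaldehyde replicate 2.

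Cyclins of other kinases were tested as well, 15 genes with Pho85 included, of which 6 fell and 3 rose (median -0.09, beside 23.5% and 29.6% of all genes). PCL5, a Pho85 cyclin that acts on the factor Gcn4, fell by 0.74 ± 0.07 (adjusted p = 0.00014 in limma), PCL2 is given above, and CLG1 fell by 0.39 ± 0.06. CCL1, the cyclin of the transcription factor TFIIH, rose by 0.50 ± 0.06, PCL10 by 0.25 ± 0.07 and PHO85 itself by 0.19 ± 0.06. The rises numbered 5 with the replicate or the scan day as a block and 1 without untreated replicate 1 or 2 or glycolaldehyde replicate 2 or 3.

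**Figure D4:**
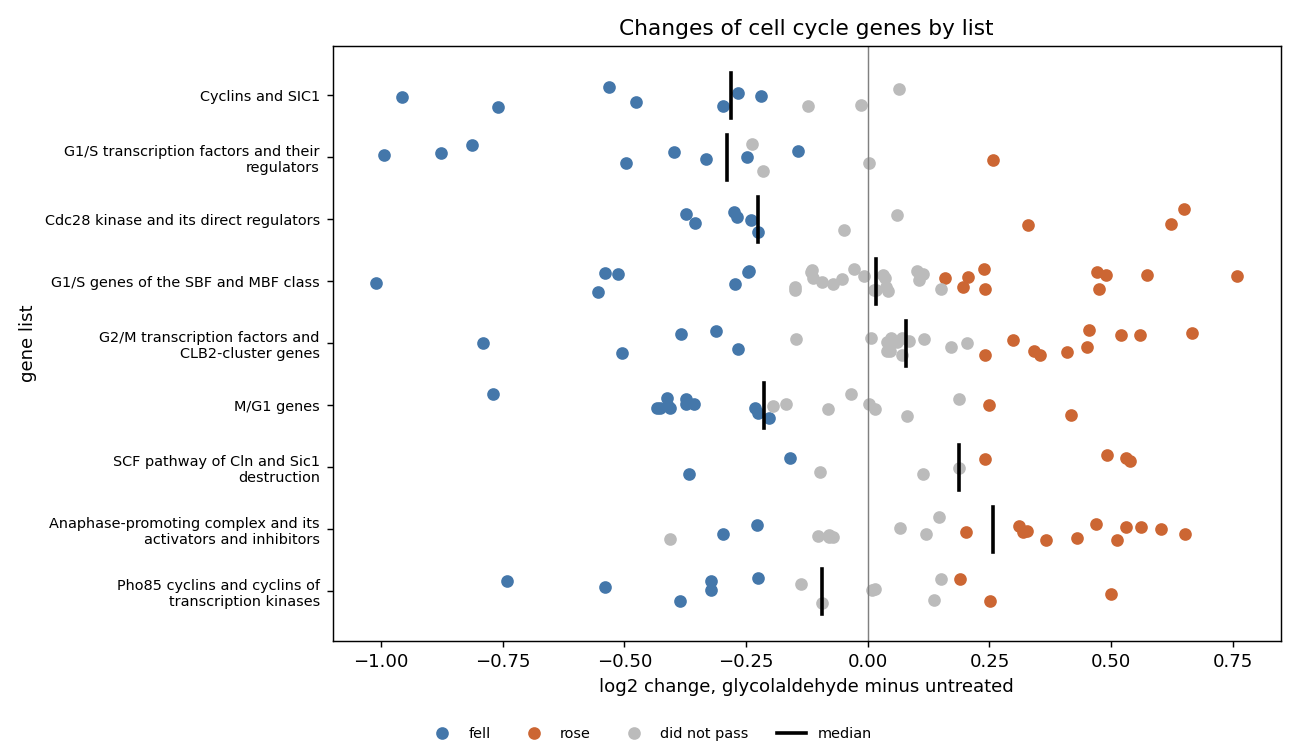
Log2 change, glycolaldehyde minus untreated, of the 10 genes (top row) and of the tested genes in 8 lists of cell cycle genes; points are genes, spread vertically at random for legibility, coloured as fallen, risen or not passed (limma, adjusted p under 0.05), with medians as black bars. The medians of the cyclins with SIC1 (-0.28) and of the G1 regulators (-0.29) lie to the left of 0, and those of the SCF (0.19) and anaphase-promoting complex (0.26) lists to the right.

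The named genes with the profile most like CLB6 over the 6 arrays, each centred on its own mean, were MEP1, an ammonium permease, ARG3, an enzyme of arginine synthesis, and GAL4, the activator of galactose genes. Their root mean square distances from CLB6 were 0.0366, 0.0492 and 0.0504 on the log2 scale, and their log2 changes were -0.95, -0.92 and -0.87. Those most like SIC1 were CHO1, TAL1 and RPL4A, which act in phospholipid synthesis, the pentose phosphate pathway and the ribosome, with distances of 0.0143, 0.0205 and 0.0249 and changes of -0.24, -0.20 and -0.21. All were picked as the closest over the same 6 arrays, so changes like those of CLB6 and SIC1 follow from the choice. Whether they share regulation was not tested.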

How the data were processed

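Per the labels, 200 ng of total RNA per sample was made into Cy3-labelled cRNA for single-colour Agilent arrays. Per the file headers, the authors obtained spot intensity from Agilent Feature Extraction (version 11.0.1.1), background-subtracted and detrended within each array. Per the submitters' processing notes R 3.0.2 was used as well, for a step they do not name. The deposited value table holds intensity on a linear scale, the mean of a probe's 7 spots, with column medians of 3307 to 5055. No column was left without a sample (0). The other deposited columns used are flags for outliers, saturation (0 saturated spots) and signal above background, which are 0 or 1 per the file headers, and raw spot and background intensity.

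Here each value was taken as log2 and the array's 75th percentile subtracted. A gene was tested when more than 0.5 of its spots were well above background on all 3 arrays of a group, and the brightest probe stood for a gene with several. limma 3.58.1 in R 4.3.3 was fitted over all 5944 genes with a treatment term and no block (two-sided, Benjamini-Hochberg). On simulated data with the spreads of this comparison it recovered 81% of probes changed by 0.5 and 98% of those changed by 1 on the log2 scale. Noise was drawn independently for each array, with 100 probes changed at each size. Shifts shared between arrays, and a share of changed genes as large as the 53.1% called here, were not simulated. Exact permutation tests over arrays used scipy 1.17.1. The number of arrays limits precision; spot CVs of the 10 genes were 1.67% to 10.4%.

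The members, lists and tests were chosen with earlier results of these data known. Named genes were all 10 members, up to 3 called genes per direction with the largest change in each list, and the 3 genes closest in profile to CLB6 and to SIC1. FKH1, NDD1 and YHP1 of the G2/M list were named in addition, outside this rule. Same-numbered arrays deviated together (correlations 0.321, 0.401 and 0.621 over 5944 genes, all above 0.1). Arrays of unlike number were not compared, and same-numbered arrays share a scan day, as do replicates 1 and 2 of both groups. These correlations therefore cannot tell pairing by number from a shared scan day, and comparisons between same-numbered arrays do not rest on a shown pairing. Gene names come from the RefSeq table of assembly R64 (5748 of 6256 probes matched). The scanner headers name another build, so no coordinates or sequences are given. The headers lack a mean spot signal, so the normexp alternative used spot medians.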

Additional observations from a re-analysis of the deposited data

How the results depend on the processing

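Each result was recomputed under 21 alternatives to the values, grouping, normalization, filter, probe rule, blocks and arrays. With the scanner files grouped as attached, genes called up and down numbered 0 and 0, from 1761 and 1397, and members called down numbered 0, from 7. The number of members that fell was 5 in the 4 agreed arrays and 7 in every other alternative that kept all arrays or used scan day 1 alone, and it ranged from 5 to 7 when 1 array was left out. In the fit with the replicate block 2174 genes were called up and 1730 down; the same 7 members fell, and no call of a member changed. CLB2 had a positive log2 change of 0.0014 with the percentile taken over probes above background on all arrays and of 0.032 with slide as a block, and -0.16 to 0.11 when 1 array was left out. CLB4 was at -0.026 as attached. CLB5 was at 0.22 as attached and 0.074 in the agreed arrays, and from -0.23 to 0.041 when 1 array was left out. As attached, the differences of log2 changes turned to 0.19 for CLN1 minus CLN2, 0.071 for CLB1 minus CLB2 and 0.012 for CLB3 minus CLB4, and SIC1 minus CLB5 ranged from -0.27 to 0.062 when 1 array was left out. The cause of these changes was not tested.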
